A study of Rattus norvegicus with 12 samples.

Results

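Liver and pancreas miRNAs were followed here in small RNA libraries of rat gastric mucosa. They were the rows of the deposited count tables named miR-122, miR-216a, miR-216b or miR-217, either arm included. The rule found 7 mature miRNAs from 4 hairpins, out of 649 in the tables: the 5p arms of all 4 hairpins, among them rno-miR-122-5p, rno-miR-216a-5p and rno-miR-217-5p, and the 3p arms of miR-122, miR-216a and miR-217. The prefix rno, for Rattus norvegicus, is left off below. The series held 12 libraries in 3 groups of 4. The XLHZ libraries came from rats given MNNG for 24 weeks plus Xianglianhuazhuo formula (XLHZ, a herbal mixture) for 60 days. The model libraries came from rats with MNNG for 24 weeks and no formula, a model of chronic atrophic gastritis, in which gastric glands are lost. The normal libraries came from untreated rats. MNNG (N-methyl-N'-nitro-N-nitrosoguanidine), an alkylating mutagen, was drunk at 180 µg/ml, and the induction added 2% sodium salicylate by gavage at 1 ml per 100 g of body weight and cycles of 2 days of feeding and 1 day of fasting. The labels give no strain, sex or age and do not state whether each library is a different animal. The p-values below therefore rest on spread among libraries, and that spread may be technical.

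A mature miRNA guides a silencing complex to messenger RNAs mainly through its seed, bases 2 to 8. miR-122 is the dominant miRNA of hepatocytes, where it acts on cholesterol and lipid metabolism, and it is also found in blood plasma after liver injury. miR-216a, miR-216b and miR-217 lie close together on 1 chromosome and are known as miRNAs of pancreatic acinar cells, which make digestive enzymes. Liver and pancreas lie next to the stomach, and cells resembling pancreatic acini can appear in chronically inflamed gastric mucosa. No liver or pancreas library was part of the series, so the counts below could not be set against a reference level of either organ.

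The 4 dominant arms are printed because they carry nearly all counts and because their letters show how alike the members are. Sequences are from RefSeq (GRCr8), in which all 7 members were matched by name, and capitals mark the seed.
miR-122-5p: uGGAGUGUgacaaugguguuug
miR-216a-5p: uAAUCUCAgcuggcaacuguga
miR-216b-5p: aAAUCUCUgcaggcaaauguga
miR-217-5p: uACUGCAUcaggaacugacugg

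In GRCr8 miR-122-5p lies at chr18:61028831-61028852, and the other 3 lie on chromosome 14 at chr14:106714045-106714066 (miR-216b-5p), chr14:106725095-106725116 (miR-216a-5p) and chr14:106732516-106732537 (miR-217-5p), all on the plus strand. The 3 pancreatic hairpins span 18564 bases, with 10949 bases between the hairpins of miR-216b and miR-216a and 7302 between those of miR-216a and miR-217. miR-216a-5p and miR-216b-5p are the same at 18 of 22 positions and at 6 of 7 seed positions. The differences, counted from the 5′ end with the miR-216a-5p base first, are U1A, A8U, U11A and C17A. These positions are spread along the sequence, so a read cut short at either end would still cover some of them. Whether any reads moved between these 2 members was not tested. No other of the 693 mature rat miRNAs in the RefSeq table had the same seed as any of the 4. The nearest other sequence differed at 9 bases from miR-122-5p and at 10 from miR-217-5p when aligned from the first base.

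The libraries held 9094962 to 11556058 counts. They had the miRNAs of gastric epithelium: the 9 miR-200 family arms, known for keeping epithelial cells epithelial, summed to 80429 ± 5820 CPM in XLHZ, 75690 ± 14867 in model and 76913 ± 5828 in normal libraries (mean ± SD, n = 4 per group here and below). CPM are counts per 1000000, scaled between libraries by TMM, a method that sets most miRNAs to no change. The smooth muscle miRNA miR-143-3p took 9.39% to 29.2% of the counts of a library, with the highest shares in model libraries 2 and 3.

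By share of counts, the liver and pancreas miRNAs were traces in every library. Together they made up 3.04 to 86.2 of every 1000000 counts. By rank, miR-122-5p was not low everywhere: in model library 3 it reached 97.6 CPM, rank 150 of the 530 miRNAs detected there. miR-122-5p stood at 20.9 CPM on average, rank 244 of 648 miRNAs, miR-216a-5p at 2.82 CPM, rank 345, miR-217-5p at 1.73 CPM, rank 370, and miR-216b-5p at 0.303 CPM, rank 471. These 4 mature miRNAs are all 22 bases long. Whether the libraries captured the 4 sequences equally was not tested, so their order is one of counts. For scale, the neuronal miR-124-3p averaged 4.19 CPM and the striated muscle miR-206-3p 1.65 CPM. These levels are of the same order as those of miR-216a-5p and miR-217-5p and above that of miR-216b-5p. Both are low members of their lists: the neuronal miR-9a-5p averaged 360 CPM and the striated muscle miR-1b 9562 CPM. Where a miRNA had 0 counts, 3 counts were taken as the limit that a 0 allows, which is 0.260 to 0.330 CPM depending on the library.

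miR-122-5p, the liver miRNA, was high in a few libraries and low in others of the same group. It had 223, 18, 544 and 46 counts in XLHZ libraries 1 to 4, 21, 20, 912 and 532 counts in model libraries 1 to 4, and 80, 29, 126 and 49 counts in normal libraries 1 to 4. XLHZ libraries 1 and 3 and model libraries 3 and 4 lay above every normal library, while XLHZ library 2 and model libraries 1 and 2 lay below every normal library. These 4 high libraries held 85.0% of all 2600 counts of miR-122-5p, and model library 3 alone held 35.1%. The exact 95% Poisson interval was 854 to 973 counts in model library 3 and 12.2 to 30.9 in model library 2, and these intervals lie far apart. Such intervals cover counting error only, since reads made by PCR are not independent molecules unless molecular identifiers were counted.

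**Figure D1:**
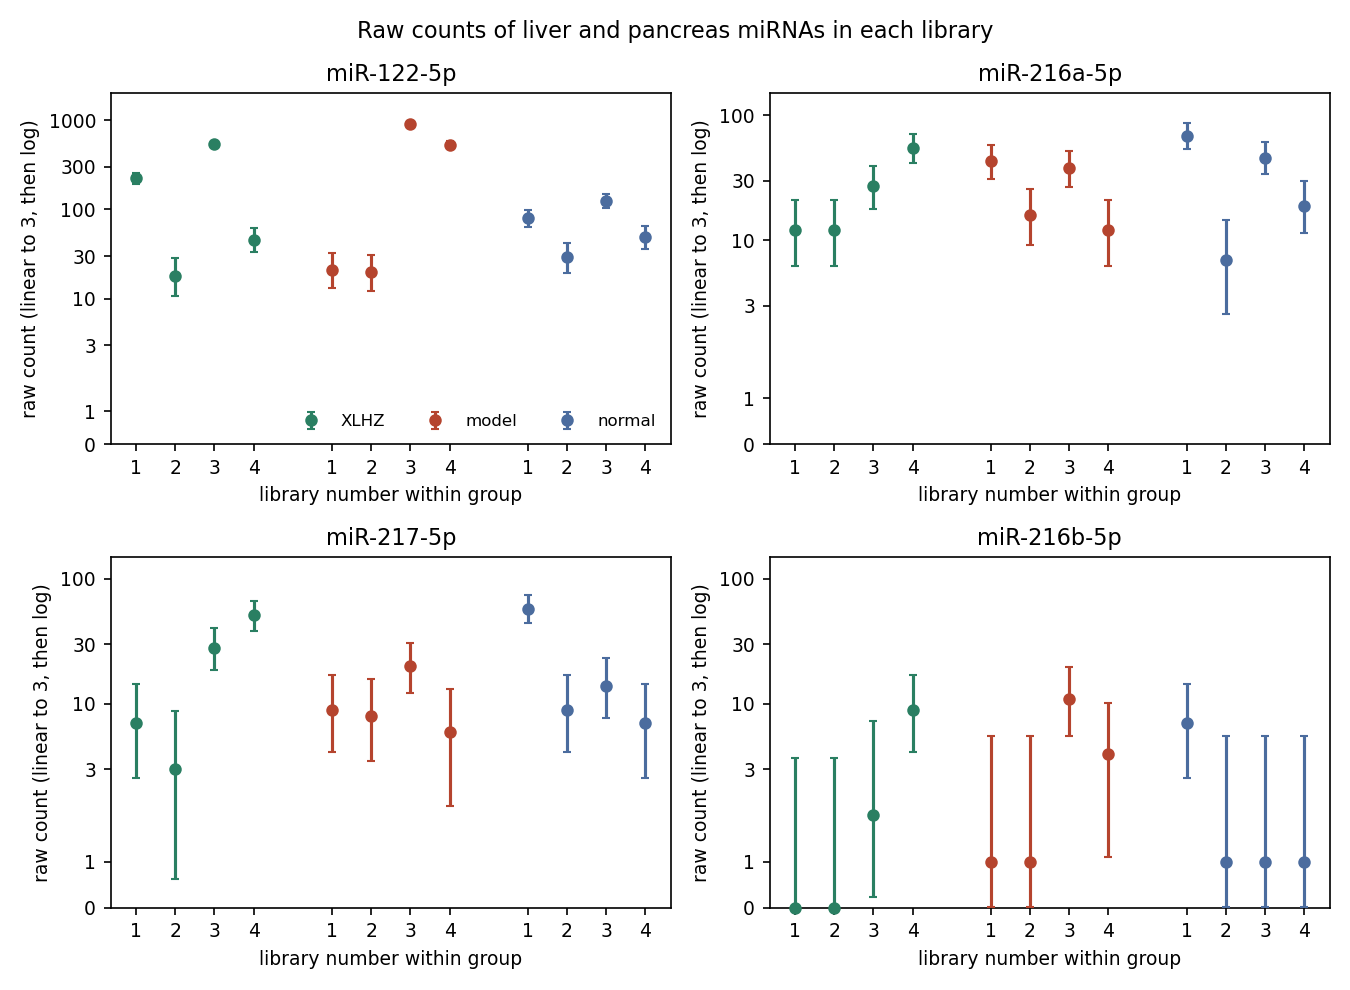
Raw counts (y axis, linear up to 3 and logarithmic above) of miR-122-5p, miR-216a-5p, miR-217-5p and miR-216b-5p in the 12 libraries (x axis, library number within XLHZ, model and normal groups); points are counts and bars are exact 95% Poisson intervals, which cover counting error only. miR-122-5p runs between 18 and 912 counts, with the highest and nearly the lowest values both in the model group, and no panel separates the groups.

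In CPM, miR-122-5p averaged 19.5 ± 22.6 in XLHZ, 36.7 ± 45.3 in model and 6.47 ± 3.89 in normal libraries. The order of the means was thus model, XLHZ, normal, and neighbours in that order did not differ beyond their spread. In bulk libraries such as these, fewer cells of a type and less of the miRNA per cell cannot be told apart. Between the highest and lowest library the level differed 29.0-fold within XLHZ, 46.4-fold within model and 4.36-fold within normal libraries. The SD of log2(CPM + 0.5) within groups was 2.04, the second largest of 398 miRNAs with a mean of at least 1 CPM, whose median SD was 0.349. Only miR-184 spread more, with 2.12. The 3 miRNAs just above miR-122-5p in mean level (miR-181a-1-3p, miR-187-3p and miR-369-5p) and the 3 just below (miR-339-3p, miR-195-3p and miR-376b-5p) had SDs of 0.240 to 0.501.

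**Figure D2:**
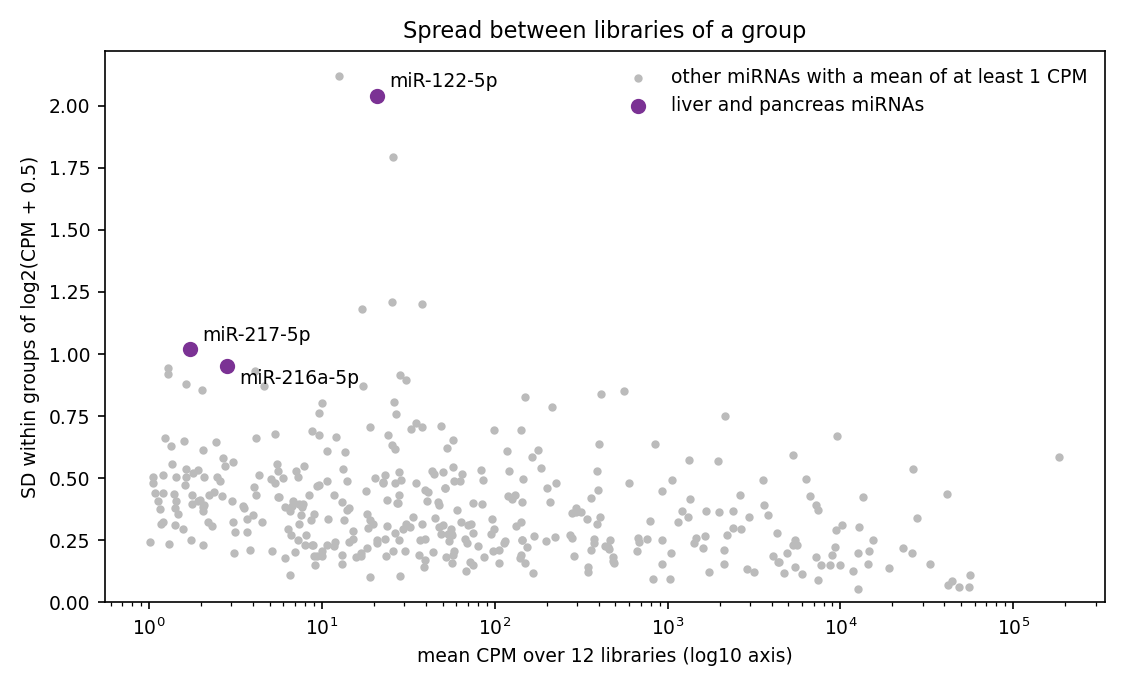
SD within groups of log2(CPM + 0.5) (y axis) against mean CPM over the 12 libraries (x axis, log10), 1 point per miRNA with a mean of at least 1 CPM. miR-122-5p stands at 2.04, and miR-217-5p and miR-216a-5p at 1.02 and 0.953, all above most miRNAs of similar level.

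The minor arm miR-122-3p had 1 count in XLHZ library 4, model libraries 3 and 4 and normal library 3 and 0 in the other libraries. It made 0.154% of the counts of its hairpin (exact 95% interval 0.0419% to 0.393%). The dominance of the 5p arm is the pattern known for miR-122 in liver, and where these counts came from was not tested.

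The first comparison asked whether atrophic mucosa differed from normal mucosa. Of the 7 members 2 passed the filter on low counts, miR-122-5p and miR-216a-5p, and 0 of these 2 passed at an adjusted p of 0.05 (edgeR quasi-likelihood test, Benjamini-Hochberg over all 403 miRNAs tested), where 0.248% of all miRNAs passed. At an unadjusted p under 0.05 it was 7.20% of all miRNAs and 0 of the 2 members, and 0 members passed with DESeq2. The log2 fold change of miR-122-5p in model over normal libraries was 2.48 ± 1.11 (SE, edgeR adjusted p = 0.62), a 5.59-fold difference with a 95% interval of 0.998-fold to 31.3-fold. Without model library 3 it was 1.43 (adjusted p = 0.731), and with the mean of log2(CPM + 0.5) in place of the fitted mean the difference was 1.12 (exact permutation test, 2-sided, p = 0.457). That difference was 0.16 without model library 3 (exact p = 0.914), 0.52 without model library 4 (exact p = 0.886) and 1.90 without model library 1 (exact p = 0.286). For miR-216a-5p it was -0.25 ± 0.69 (SE, edgeR adjusted p = 0.937), with an interval of 0.287-fold to 2.45-fold.

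The second comparison asked whether the formula changed these traces in exposed mucosa. The same 2 members were tested and 0 passed, where 0.249% of 402 miRNAs passed. At an unadjusted p under 0.05 it was 0 of the 2 members and 4.23% of all miRNAs, and 0 members passed with DESeq2. The log2 fold change of miR-122-5p in XLHZ over model libraries was -0.93 ± 1.28 (SE, edgeR adjusted p = 0.845), with a 95% interval of 0.0711-fold to 3.89-fold, and without model library 3 it turned to 0.18 (adjusted p = 0.988). Without XLHZ library 3 it was -2.02 (adjusted p = 0.878). For miR-216a-5p it was -0.22 ± 0.58 (SE, edgeR adjusted p = 0.935), which is 0.856-fold with an interval of 0.348-fold to 2.11-fold.

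The third comparison set XLHZ libraries against normal ones. Here miR-217-5p passed the filter too, and 0 of 3 members passed the test, where 1.5% of 401 miRNAs passed, 0.998% higher and 0.499% lower. At an unadjusted p under 0.05 it was 0 of the 3 members and 8.73% of all miRNAs, and 0 members passed with DESeq2. The log2 fold change was 1.54 ± 0.91 for miR-122-5p (SE, edgeR adjusted p = 0.639), and it was 0.48 without XLHZ library 3 (adjusted p = 0.918). It was -0.47 for miR-216a-5p (SE 0.70, adjusted p = 0.809) and -0.070 for miR-217-5p (SE 0.89, adjusted p = 0.99), which was 1.16 without normal library 1 (adjusted p = 0.611). The 95% intervals on the log2 scale were -0.51 to 3.59 for miR-122-5p, -2.05 to 1.11 for miR-216a-5p and -2.07 to 1.93 for miR-217-5p, so differences of several fold lie within them. Each group enters more than 1 comparison, so the 3 results are not independent.

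**Figure D3:**
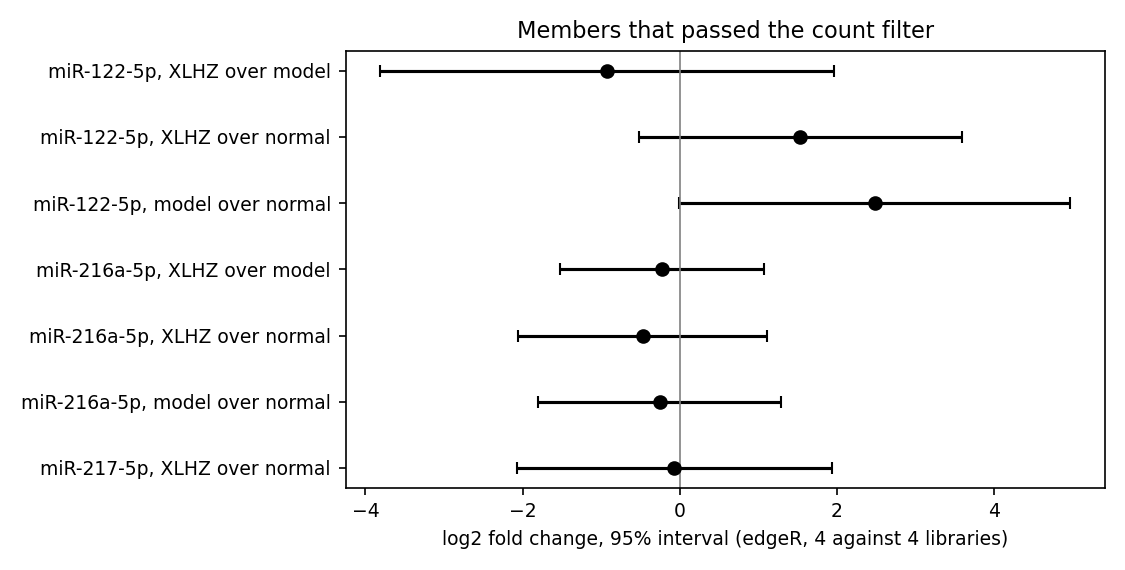
Log2 fold changes (x axis) with 95% intervals from edgeR for the members that passed the count filter, each from 4 against 4 libraries, named as the first group over the second. All 7 intervals include 0, and that of miR-122-5p in model over normal libraries, centred at 2.48, is the one that comes nearest to leaving it out.

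The groups overlapped for every member in every comparison: 0 of 7 members were separated in any of the 3. Among all miRNAs tested, 3.47% were separated between model and normal, 1.25% between XLHZ and model and 6.23% between XLHZ and normal libraries. Only 2, 2 and 3 of the members were among the miRNAs tested, and the others fell below the count filter. The 0 of 7 is therefore not on the same footing as these shares.

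miR-216a-5p, the most abundant of the pancreatic members, was detected in all 12 libraries. It had 12, 12, 27 and 55 counts in XLHZ libraries 1 to 4, 43, 16, 38 and 12 in model libraries 1 to 4, and 69, 7, 46 and 19 in normal libraries 1 to 4. The highest and the lowest library were both normal ones. In CPM it averaged 2.37 ± 1.65 in XLHZ, 2.78 ± 1.65 in model and 3.30 ± 2.80 in normal libraries, with an 11.1-fold range in the normal group. Its SD within groups on the log2 scale was 0.953, the eighth largest of the 398, against 0.325 to 0.581 for its 6 neighbours in level (miR-32-3p, miR-329-3p, miR-337-5p, miR-34b-3p, miR-25-5p and miR-210-5p).

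miR-217-5p, the next member of the cluster, was also detected in all 12 libraries. It had 7, 3, 28 and 51 counts in XLHZ libraries 1 to 4, 9, 8, 20 and 6 in model libraries 1 to 4, and 58, 9, 14 and 7 in normal libraries 1 to 4. Normal library 1 and XLHZ library 4 stood above the rest and together with XLHZ library 3 held 62.3% of the 220 counts. The level averaged 1.97 ± 1.86 CPM in XLHZ, 1.11 ± 0.713 in model and 2.11 ± 2.47 in normal libraries. The SD within groups on the log2 scale was 1.02, against 0.252 to 0.880 for its 6 neighbours in level (miR-330-3p, miR-671, miR-421-3p, miR-206-3p, miR-204-3p and miR-702-3p). In the comparisons where it fell below the count filter, the mean of log2(CPM + 0.5) was 0.59 in model and 0.99 in normal libraries (difference -0.40, exact permutation test, 2-sided, p = 0.629) and 0.95 in XLHZ and 0.59 in model libraries (difference 0.36, exact permutation test, p = 0.629). With 4 against 4 libraries the smallest p this test can give is 0.0286.

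miR-216b-5p, close in sequence to miR-216a-5p, was sparse. It had 0, 0, 2 and 9 counts in XLHZ libraries 1 to 4, 1, 1, 11 and 4 in model libraries 1 to 4, and 7, 1, 1 and 1 in normal libraries 1 to 4. Model library 3, XLHZ library 4 and normal library 1, which are 1 library of each group, held 71.1% of its 38 counts. The permutation test gave a difference in mean log2(CPM + 0.5) of 0.27 in model minus normal (exact p = 0.457), -0.31 in XLHZ minus model (exact p = 0.514) and -0.041 in XLHZ minus normal libraries, the smallest of the 3. In all, 15 such tests were run over 5 members, and the lowest exact p among them was 0.457.

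The minor pancreatic arms appeared in the same few libraries. miR-216a-3p had 2 and 4 counts in XLHZ libraries 3 and 4, 3 counts in model library 3, 3 counts in normal library 1 and 0 in the other 8. miR-217-3p had 2 counts in XLHZ library 4, 1 in model library 3 and 0 in the other 10. The 3p arm made 3.26% of the counts of the miR-216a hairpin (exact 95% interval 1.70% to 5.63%) and 1.35% of those of miR-217 (0.278% to 3.88%). All pancreatic arms together summed to 19, 15, 59 and 121 counts in XLHZ libraries 1 to 4, 53, 25, 73 and 22 in model libraries 1 to 4, and 137, 17, 61 and 27 in normal libraries 1 to 4. Normal library 1, XLHZ library 4 and model library 3 held 52.6% of the 629 counts, a choice of libraries made after their values were seen.

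The pair of pancreatic members with enough counts had the highest correlation among the members. Over the 12 libraries miR-216a-5p and miR-217-5p had a Spearman rho of 0.825 (permutation p = 0.00172, adjusted p = 0.0618 over 39 relations computed) and a Pearson r of 0.789 on log2(CPM + 0.5) (permutation p = 0.00234, adjusted p = 0.0913). Without normal libraries 1 and 2, the 2 farthest from the median of miR-216a-5p, r was 0.748, and with each group centred on its own mean it was 0.819. Neither value passed the adjustment. Among 397 miRNAs with a mean of at least 1 CPM, miR-217-5p was the one most like miR-216a-5p by Spearman rho, and miR-216a-5p the one most like miR-217-5p. The next most like miR-216a-5p, miR-201-3p and miR-223-5p, had a rho of 0.566 each, and the next most like miR-217-5p, miR-203a-3p and miR-201-3p, had 0.706 and 0.692. By Pearson r, miR-203a-3p (0.836) stood above miR-216a-5p (0.789) for miR-217-5p. Without normal library 1 and XLHZ library 4, the 2 farthest from the median of miR-217-5p, its r was 0.628 with miR-216a-5p. It was 0.713 with miR-201-3p and 0.627 with miR-203a-3p. These likenesses were picked as the highest of 397 and are a description. The count of miR-217-5p over that of miR-216a-5p ran between 0.209 and 1.29 in the 11 libraries where both had more than 3 counts, a 6.17-fold range.

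miR-122-5p had a Spearman rho of 0 with miR-216a-5p (permutation p = 1) and of 0.287 with miR-217-5p (permutation p = 0.369). The Pearson r was 0.109 with miR-216a-5p (permutation p = 0.729) and 0.234 with miR-217-5p (permutation p = 0.459), and without model library 3 and XLHZ library 3 they were -0.0849 and 0.00188. The count of miR-122-5p over that of miR-216a-5p ran between 0.488 in model library 1 and 44.3 in model library 4, a 90.8-fold range over the 12 libraries. Model library 4 had 532 counts of miR-122-5p and 12 of miR-216a-5p, while XLHZ library 4 had 46 and 55. A difference between the 2 correlations was not tested.

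**Figure D4:**
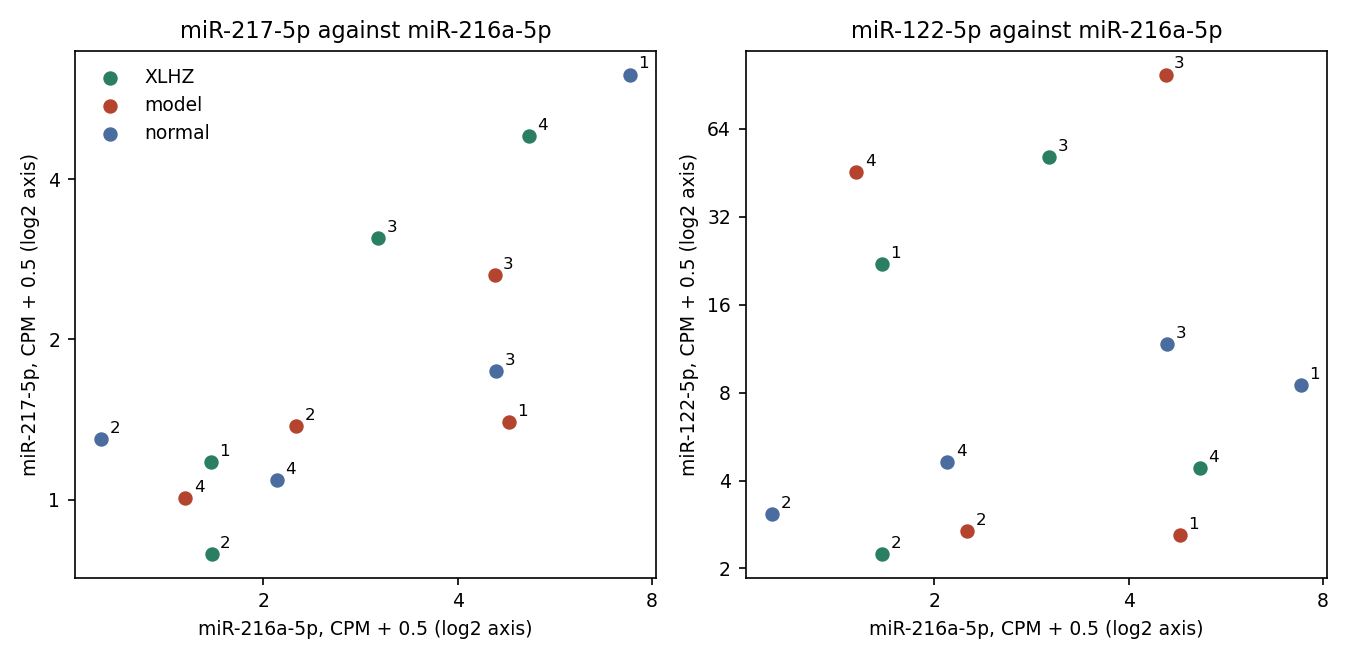
miR-217-5p (left) and miR-122-5p (right) against miR-216a-5p, in CPM + 0.5 on log2 axes, 1 point per library, numbered within XLHZ, model and normal groups. On the left the 12 points rise together (rho 0.825), and on the right they do not (rho 0).

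Markers of other cells were measured in the same libraries, and their part in these traces was not tested. Of 10 marker lists, the sum most like miR-122-5p by rho was that of the 9 gastric epithelial arms, with a Spearman rho of 0.79 (permutation p = 0.00317, adjusted p = 0.0618) and a Pearson r of 0.585 (permutation p = 0.0333, adjusted p = 0.26), or 0.501 without model library 3 and XLHZ library 3. Which list came first depended on the measure and the scaling: by r the list shared by liver, pancreas and other epithelia was higher (0.598), and with CPM on library totals the rho was 0.531 for the gastric epithelial, 0.664 for the shared and 0.552 for the endothelial list. The 3 single miRNAs most like it by rho were miR-200b-3p (0.79), miR-450b-5p (0.783) and miR-449a-5p (0.776). The 5 arms of the blood and erythroid list (miR-144, miR-451 and miR-486) summed to 92.7 to 206 CPM in XLHZ, 33.8 to 133 in model and 44.6 to 160 in normal libraries, with a rho of 0.378 with miR-122-5p (permutation p = 0.229). Of the members of all 10 lists, miR-144-5p of the blood and erythroid list passed in XLHZ over normal libraries, at 27.5 ± 11.5 CPM in XLHZ and 7.22 ± 1.77 CPM in normal libraries, and 0 others passed in any comparison. It was 1 of 4 arms of its list tested there, where 1.5% of all 401 miRNAs passed. The other arm of its hairpin, miR-144-3p, averaged 20.3 ± 5.93 CPM in XLHZ and 22.4 ± 26.8 CPM in normal libraries. By rho, the sum most like miR-217-5p was the squamous one (miR-205, miR-203 and miR-31a, 6 arms), with a rho of 0.629 (permutation p = 0.0328, adjusted p = 0.383) and an r of 0.69 (permutation p = 0.0118, adjusted p = 0.203). With each group centred on its own mean the r was 0.845, beside 0.819 for miR-217-5p with miR-216a-5p. Without normal library 1 and XLHZ library 4 the uncentred r was 0.305, so it rests on those libraries. With CPM on library totals the leukocyte sum came before it for miR-217-5p (rho 0.622 against 0.601). The squamous sum ran at 7492 to 9942 CPM in XLHZ, 7022 to 9619 in model and 9352 to 13020 in normal libraries, highest in normal library 1. For miR-216a-5p it was the leukocyte list (miR-142, miR-150 and miR-223, 6 arms), with a rho of 0.524 (permutation p = 0.0847, adjusted p = 0.431) and an r of 0.526 (permutation p = 0.0775, adjusted p = 0.432), while by r the squamous sum was higher (0.565).

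Other miRNAs that liver and pancreas share with epithelia were mostly far more abundant than the members. miR-194-5p and miR-192-5p, miRNAs of liver and intestinal epithelium, averaged 6692 and 6310 CPM, and miR-148a-3p, abundant in liver, pancreas and stomach, averaged 5298 CPM. Of the 12 arms of this list, 10, 9 and 9 were tested in the 3 comparisons and 0 passed. The list sum had a rho of 0.608 with miR-122-5p (permutation p = 0.0393, adjusted p = 0.383). Their median log2 fold change was 0.053 in model over normal, -0.084 in XLHZ over model and -0.028 in XLHZ over normal libraries, beside -0.0072, 0.0057 and -0.0040 for all miRNAs tested. Model library 3, which held the most miR-122-5p of any library, also had the most miR-192-5p (11963 CPM against 3182 to 7362 in the other 11) and the least miR-148a-3p (1395 against 3834 to 7018). It had the least of the endocrine miR-375-3p as well, with 5229 CPM. The endocrine list was not uniform there. Its miR-7b, at 104 CPM, was close to the highest value of any library (105 CPM), and its miR-7a-5p, at 4471 CPM, was not the lowest. The extremes of this library were not confined to liver, pancreas and endocrine miRNAs. Of the 12 libraries it also had the most miR-1b (striated muscle, 21241 CPM), miR-31a-5p (squamous, 5739 CPM) and miR-429 (gastric epithelium, 21314 CPM). The striated muscle miR-133a-3p (1861 CPM) and miR-1-3p (951 CPM) were highest there too. The squamous miR-205 was instead the lowest of the 12 (1718 CPM), and the gastric epithelial miR-200a-3p (27527 CPM) was not the highest. miR-802, a miRNA of liver and pancreas singled out here after its values were seen, had 64 counts of its 5p arm and 64 of its 3p arm in model library 3. The other libraries had 10 to 46 counts of the 5p arm and 2 to 17 of the 3p arm. Model library 4, with 532 counts of miR-122-5p, had 20 counts of miR-802-5p and 9 of miR-802-3p.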

How the data were processed

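Small RNA libraries were made from total RNA of gastric mucosa with a QIAseq kit and read on an Illumina HiSeq, per the labels' protocols. Per the submitters' processing notes, the tools were Bowtie and DESeq, with no version. Genome build, counting rule and unit counted (reads or molecules): not given in the sources used here. Deposited by the authors were 2 tables of raw counts per mature miRNA with 639 and 632 miRNAs, per the file headers. The deposited CPM columns equal each count over its column total (largest difference 5.0e-05) and served as a check only.

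The tables were joined over 648 miRNAs. Of 622 shared miRNAs 621 had the same model counts in both, and miR-20b-3p, which did not, was dropped. A miRNA listed in only 1 table (3 counts at most in any library) was set to 0 in the other. Libraries held 9094962 to 11556058 counts. Within each group every pair of libraries differed by more than sampling noise. Groups and columns came from the sample labels.

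Each comparison was fitted on its 8 libraries with edgeR 4.0.16 in R 4.3.3 (quasi-likelihood, TMM, filterByExpr with a minimum count of 10, Benjamini-Hochberg over all miRNAs, threshold 0.05), after a test on simulated data. Standard errors are the fold change over the square root of F. Members with at least 12 counts in all were also tested by exact permutation, and those with at least 60 entered correlations (100000 permutations, scipy 1.17.1). Levels are CPM scaled by TMM over 12 libraries, with a pseudocount of 0.5 on log scales. Alternatives were other scalings, filters and pseudocounts, DESeq2 1.42.0, all 12 libraries in 1 fit, a replicate block and libraries left out. Named miRNAs are all members, the 3 most abundant of each marker list and any that passed (where a result touches them), the 3 most like each member and the 3 nearest in level above and below. miR-124-3p, miR-144-3p, miR-184 and miR-802 fall outside this rule and were named after their values were seen. Members and lists were chosen with earlier results of these data known.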

Additional observations from a re-analysis of the deposited data

Results flagged for a closer look

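Libraries standing apart within a group of 4 were sought by the gap to the nearest library over the range of the group (Dixon's test at 95%) in 43 groups of values. About 1 in 20 groups meets this by chance, and 4 did. Normal library 1 stood above the other normal libraries for miR-217-5p, with 5.79 CPM, and for miR-216b-5p, with 0.699 CPM, which is 7 counts against 1 in each of the others. The same library had the lowest sum of the gastric epithelial list among normal libraries, 68200 CPM. Normal library 2 had the highest sum of the neuronal list among them, 707 CPM.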

How the results depend on the processing

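No member passed under any alternative, in 119 fold changes, of which 12 turned sign, and 165 permutation differences, of which 32 did. Among all miRNAs, 1 passed in model over normal libraries, against 2 with upper-quartile factors, library totals or at least 50 counts in 4 libraries, 3 with no count filter, 4 with all 12 libraries in 1 fit and 7 with DESeq2, and 1 to 4 with a library left out. In XLHZ over model it was 1, against 0 without model libraries 2 and 3 and 0 to 1 with a library left out, and in XLHZ over normal 6, against 2 with all 12 libraries and 4 to 7 with a library left out.

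With a library left out, the log2 fold change of miR-216a-5p ran from -0.57 to 0.39 in model over normal, -0.77 to 0.079 in XLHZ over model and -1.03 to 0.17 in XLHZ over normal. That of miR-122-5p ran from -2.02 to 0.18 in XLHZ over model, and that of miR-217-5p from -0.79 to 1.16 in XLHZ over normal, where it was also 6.9e-05 with upper-quartile factors and 0.0048 with library totals. The cause was not tested. Deviations of libraries with the same replicate number had correlations of -0.346 to 0.483. Libraries with different numbers were not compared, so these values cannot show whether replicate numbers pair the libraries. With the replicate block miR-217-5p was at 0.0032, miR-122-5p at 1.32, -0.55 and 0.84 in the 3 comparisons in the order above, and 1, 1 and 5 miRNAs passed.

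Differences in mean log2(CPM + 0.5) with a library left out, in model minus normal, were 0.16 to 1.90 for miR-122-5p, -0.17 to 0.18 for miR-216a-3p, -0.50 to 0.41 for miR-216a-5p, -0.058 to 0.53 for miR-216b-5p and -0.69 to 0.15 for miR-217-5p. In XLHZ minus model they were -1.16 to 0.59 for miR-122-5p, -0.027 to 0.30 for miR-216a-3p, -0.54 to 0.036 for miR-216a-5p, -0.61 to 0.017 for miR-216b-5p and -0.078 to 0.79 for miR-217-5p. In XLHZ minus normal they were -0.026 to 1.48 for miR-122-5p, -0.017 to 0.30 for miR-216a-3p, -0.69 to 0.21 for miR-216a-5p, -0.34 to 0.22 for miR-216b-5p and -0.48 to 0.52 for miR-217-5p. In model minus normal, miR-216a-3p was at -0.017 on library totals and miR-216a-5p at 0.019 with a pseudocount of 0.1. Without the 2 libraries farthest from the median, the Pearson r of miR-122-5p with miR-216a-5p was -0.0849 and 1 relation passed by Spearman's test against 0, that of miR-122-5p with the endothelial sum (rho 0.903, permutation adjusted p = 0.0304). Low counts limit what can be seen of the pancreatic members.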
